A study of Arabidopsis thaliana with 7 samples.

Results

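The map of HY5-YFP binding in blue light held 8633 sites in the Arabidopsis genome, highest at the gene HY5 itself. It was built from the peak lists of the 3 blue light libraries alone, in each of which the authors had called peaks against 1 pooled mock library. Overlapping peaks were joined into 10097 sites, and the 8633 sites with a peak in at least 2 of the 3 lists made up the map. The other 1464 sites were called in 1 list and are not members. Most of the sites lay at gene ends: 75.1% had their centre within 500 bp of the end of a protein-coding gene, and 12487 of 27444 protein-coding genes (45.5%) had a site in reach of either end (7986 when each site counts for its nearest gene alone).

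Chromatin came from whole Arabidopsis thaliana plants of the Wassilevskija (Ws) accession, 10 days old, that carried the hy5-ks50 T-DNA insertion mutation and expressed a HY5-YFP fusion. The plants were grown on medium with sucrose, entrained to cycles of 12 hours of light and 12 of darkness, and then kept for 52 hours in blue light of 15 µmol m-2 s-1. The 3 blue libraries are biological replicates, pulled down with beads that carry an antibody against green fluorescent protein, and the mock was made from a mix of the same 3 chromatin samples with beads lacking the antibody. The study, which has 7 samples in all, asked by its title how HY5 carries blue light signals to the circadian clock. All groups share the mutation and the transgene. The promoter of the transgene and the number of lines are not given in the sources used here, and plants without the fusion were not analysed, so binding means binding of HY5-YFP under the conditions of this transgene.

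HY5, a transcription factor of the bZIP class, promotes the switch from growth in darkness to growth in light, and it binds DNA elements with an ACGT core. In darkness the ubiquitin ligase COP1, with its SPA partners, marks HY5 for degradation. Blue light, seen by the cryptochromes, holds back COP1, so that HY5 accumulates and acts on genes of pigment synthesis, the plastid, hormone responses and the clock.

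The libraries held 11.7, 10.1 and 7.99 M tags (M stands for 1000000) in blue replicates 1, 2 and 3, where a tag is a mapped read, and the lists held 8724, 8524 and 8888 peaks. Peaks took up 25.5%, 24.8% and 25.7% of the tags. The height of a site is given as tags per 10 M tags of the library in a peak window of 341 to 349 bp, as the authors scaled it, so heights can be compared between sites without a correction for length. A peak needed 4-fold more tags than the mock and 4-fold more than its 10000 bp surroundings. Between 13.2% and 14.5% of the peaks of a list lay from 4-fold to 5-fold over the mock, and 39.98% to 43.9% of the candidate peaks had been removed for lack of excess over it. Errors are SD over the 3 blue libraries (n = 3) unless another n is given.

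Heights in the 3 libraries were close. At the 7406 sites called in all 3 lists, Spearman's rho across sites was 0.981 for replicates 1 and 2, 0.979 for replicates 1 and 3, and 0.976 for replicates 2 and 3. Sites are not independent replicates, so these are descriptions. Heights in a pair of libraries lay within 1.5-fold of each other at 99.8% to 99.9% of these sites. The coefficient of variation of a site had a median of 6.19% and reached at most 28.9%. The SD expected from counting error had a median of 6.57% of the mean. The median of an SD from 3 values lies below the expected SD, so these medians do not place the spread below counting error. The chi-square of the tag numbers was 1.35 to 1.49 per site in the 3 pairs, where 1 is sampling noise, so no library repeated another.

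Over the map the mean height had a median of 216 tags, with quartiles of 149.9 and 339 tags, and ran from 52.8 to 9184 tags. Tall sites were few: 201 sites (2.33%) exceeded 1000 tags and 1048 exceeded 500 tags. The highest 1% of the sites held 5.98% ± 0.0796 of all tags in sites and the highest 10%, which began at 551 tags, held 29.7% ± 0.201.

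The highest site lay at HY5 (AT5G11260), at positions 3594892 to 3595245 of chromosome 5 (TAIR10), with its centre 6.33 bp inside the gene end and OCP3 as the next gene. It held 8966, 9568 and 9016 tags in blue replicates 1, 2 and 3. That was 2.64 times the second highest site and 0.372% ± 0.0190 of all tags in sites. The HY5-YFP transgene carries HY5 sequence, so tags from the transgene and from the HY5 locus itself cannot be told apart.

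The second highest site lay between AT3G22436 and AT3G22440, at positions 7959502 to 7959860 of chromosome 3, and held 3515, 3412 and 3516 tags. EDD1, which encodes a plastid glycyl-tRNA synthetase, had a site 187 bp from its end with 2879.5, 2696 and 2735 tags. At RPT2, a partner of the phototropins in bending towards blue light, the site held 2621, 2705 and 2528 tags. These 3 sites kept their order in every library except that RPT2 exceeded EDD1 in replicate 2, by 2705 against 2696 tags. Next came a site inside AT1G48840 with 2436, 2518 and 2455 tags. GSTU15, which encodes a glutathione transferase, had a site inside the gene with 2387, 2532 and 2327 tags. The ranges of AT1G48840 and GSTU15 overlapped, so their order rests within the spread of the libraries.

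A site in the long spacer between AFP3 and AT3G29580, 2888 bp from the end of AFP3, held 2283, 2344 and 2452 tags. The site between CPC, a MYB factor of root hair patterning, and AT2G46420 held 2430.1, 2323 and 2151 tags. FC1, which encodes the haem-forming ferrochelatase, had its site 1285 bp from the gene end with 2066, 2135 and 2082 tags. Below these the heights fell off slowly, and sites ranked 10 to 20 lay between 1915 and 2090 tags. They were the sites inside ATL5 beside AT3G62695 (2090.5 ± 49.2 tags), between SIGE (SIG5) and AT5G24130 (2083 ± 41.2), and beside AT5G02970 (2053 ± 34.2). The spacer of AT1G01335 and the ion channel gene CNGC10 held 1983 ± 68.4 tags, and the site beside AT1G19500 1971 ± 114 tags. Sites at AT3G56270 (1956 ± 27.4), at AT4G37480 next to the karrikin receptor gene KAI2 (1946 ± 8.52) and at AT1G13650 (1932 ± 44.8) followed. The last of the 20 lay at ARP8 (1923 ± 66.9), an actin-related protein, between PEX10 and AT2G26360 (1919 ± 37.7) and between WOX13 and DAW1 (1915 ± 66.2). Of these 20 sites 15 had their centre between genes and 5 inside a gene.

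**Figure D1:**
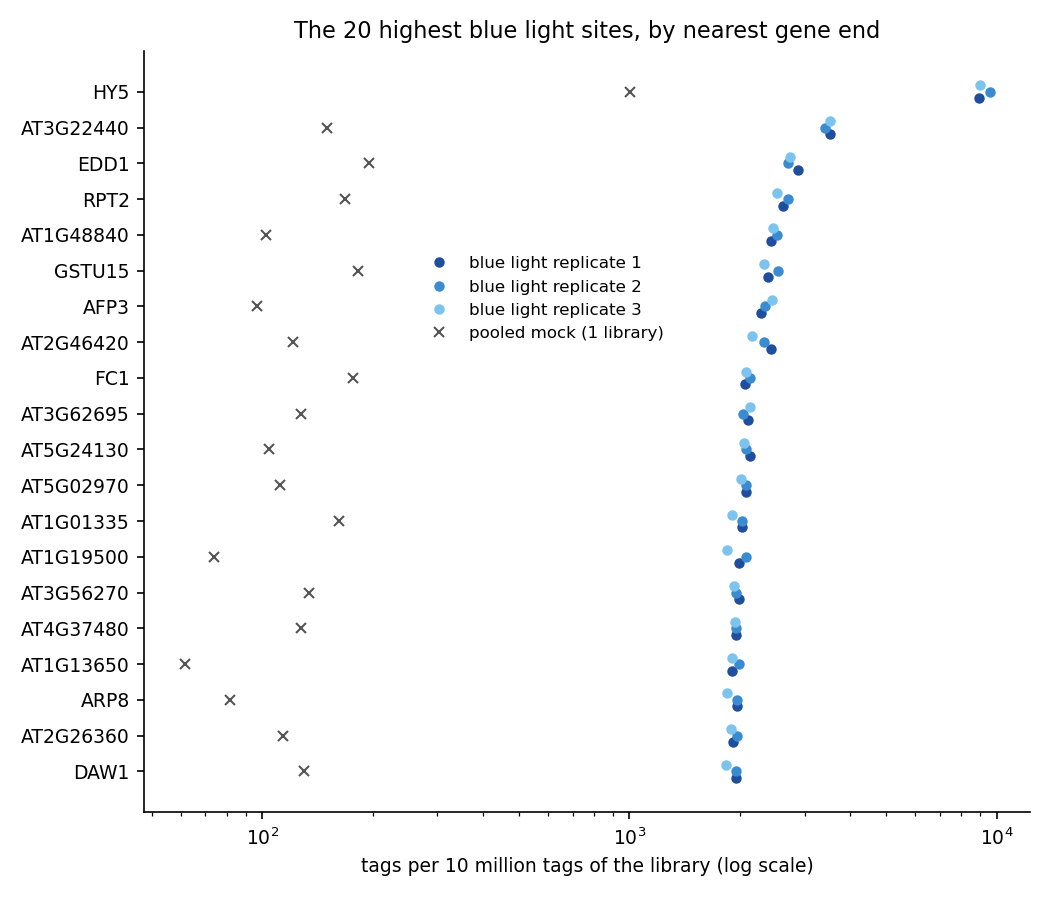
The 20 highest blue light sites, named after the nearest gene end, with tags per 10 M tags of the library on a log scale. Circles are the 3 blue libraries and crosses the mock library scaled to 10 M. The blue values of each site lie close together, the HY5 site stands at 9184 tags and the other 19 lie between 1915 and 3481 tags.

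The mock held few tags under most sites. Its total, derived from the lists, was 6.84 M tags, so that 19.8 mock tags would fall in a window if they were spread evenly over the genome. Under the sites the mock had a median of 19 tags, with quartiles of 14 and 25.7 tags, and 4647 sites (53.8%) lay below the even level. Mock tags reached 2 times the even level at 459 sites and 3 times at 91. The mock is 1 library, so its values have no SD.

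Mock tags were most numerous under the highest blue site. At HY5 the mock window held 686 tags, which is 34.7 times the even level, and the mock there ranked first of all 8633 sites. The fold over the mock, with 1 mock tag added to both sides, was 9.14 at HY5, which ranked 3243rd, while the authors' fold over the 10000 bp surroundings was 127. Next in mock tags came EDD1 with 133, GSTU15 with 125 and FC1 with 121. RPT2 had 115 mock tags, the AT1G01335 spacer 110.3 and AT3G22440 103. The other members of the 10 highest in the mock were CUC1, a NAC factor of organ boundaries, with 100 mock tags against 1589.9 ± 45.7 blue tags, AT5G10730 with 97 against 1677 ± 54.8, and AT1G68500 with 95.7 against 1487 ± 24.1. All 10 were among the 55 highest blue sites. Over all sites Spearman's rho of blue and mock tags was 0.649, a description in which the points share libraries and the required 4-fold excess caps the mock at low sites. What part of the blue tags at such sites does not depend on the antibody was not tested.

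**Figure D2:**
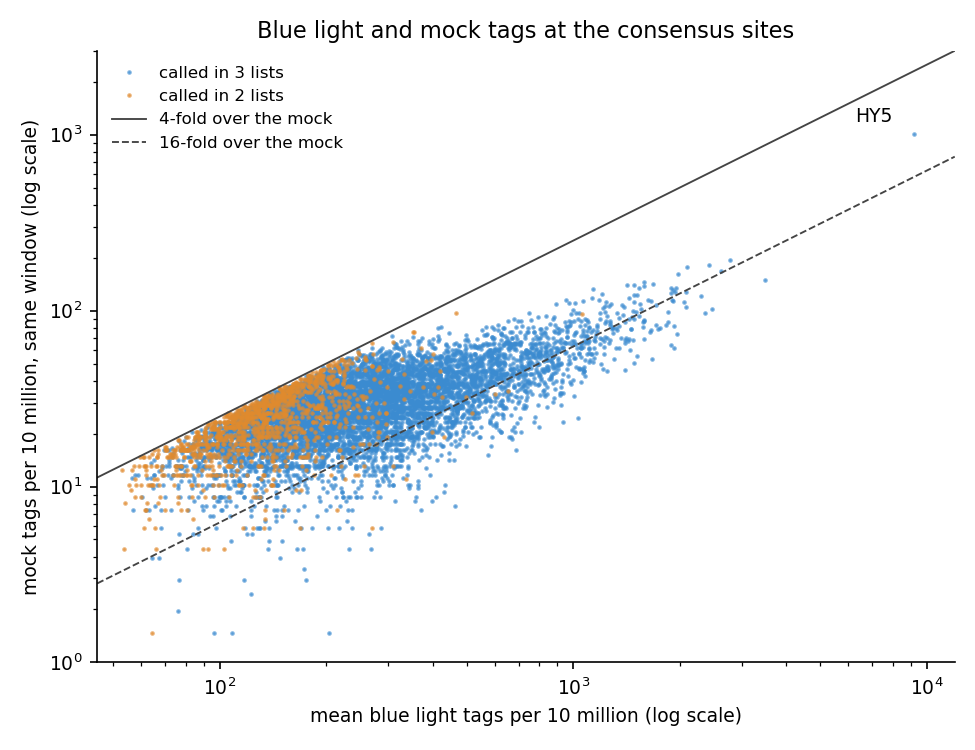
Mean blue light tags (horizontal) against mock tags in the same window (vertical), both per 10 M tags on log scales, for the consensus sites. Blue points were called in 3 lists and orange points in 2, and the lines mark 4-fold and 16-fold. Points called in 2 lists gather along the 4-fold line, HY5 stands alone at the upper right, and the 2 sites with no mock tag are not drawn.

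The fold over the mock had a median of 7.70, with quartiles of 5.64 and 11.1. This fold chose the peaks and is given as a description. The authors' own folds had medians of 8.12, 8.07 and 8.18 in the 3 lists. At 776 sites (8.99%) the fold reached 16, at 33 it reached 32, and at 1341 (15.5%) it stayed below 5. The count at 16-fold depends on the scaling, with 2220 sites when the mock is left unscaled and 1823 when blue tags are scaled to the tags outside the peaks. Of the 100 highest sites 56 reached 16-fold. Sites of at least 16-fold had a median of 481 blue and 16 mock tags, and the lowest of them held 64.4 blue tags.

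Taller sites had more mock tags and larger folds. Both trends are descriptions, since the required 4-fold excess caps the mock at low sites and the height is part of the fold. From the lowest to the highest 10% of the sites the median rose from 96.3 to 752 blue tags and from 11 to 37.3 mock tags, which is 0.557 and 1.89 times the even level. The median fold over the mock was 5.20 in the lowest and 14.6 in the highest 10%, and the authors' fold over the surroundings 5.19 and 21.6. The share of sites called in all 3 lists was 55% and 99.7%. The authors' focus ratio, the share of tags on the expected side of the peak centre, had a median of 0.784 and 0.887.

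The 10 largest folds stood over almost empty mock windows, at sites of 84.2 to 462 tags. CYP76C2, a cytochrome P450 gene, had 143, 127 and 169 blue tags and AT4G14350 77.0, 74.2 and 101, and neither had a mock tag. Against a floor of 3 mock tags, which correspond to 4.39 tags per 10 M, these were at least 33.3-fold and 19.2-fold higher than the mock. The 95% counting interval of 0 mock tags reaches 3.69 tags, which lowers these bounds to 27.1 and 15.6. AIR12, an auxin-induced gene, had 218, 198 and 194 blue tags over 1 mock tag, a ratio of 139 with a 95% counting interval of 25.0 to 5493. The intervals show how little a nearly empty mock window fixes the ratio. AT2G20060 (2 mock tags) and AT2G43140 (2.33) had ratios of 60.1 (16.6 to 496) and 50.6 (16.3 to 487). SUVH9, a factor of RNA-directed DNA methylation, and AT3G62560, with 3 mock tags each, had ratios of 61.2 (20.9 to 297) and 53.0 (18.1 to 257). Somewhat more mock tags stood at Fes1A, an HSP70-binding protein, with 461, 472 and 453 blue over 5.33 mock tags, a ratio of 59.2 (27.1 to 195). CP29, a plastid RNA-binding protein, had 367, 355 and 393 over 5, a ratio of 50.8 (21.8 to 157). IRX14-L of xylan synthesis had 372, 416 and 410.4 over 5.67, a ratio of 48.2 (20.9 to 124). The folds of these 3 with 1 mock tag added were 50.2, 43.6 and 41.2, and their intervals are wide too. Counting intervals cover counting error alone.

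Sites called in 2 of 3 lists, 1227 in number (14.2%), were low. Their median height was 134 tags against 239 at the sites of all 3 lists and 126 at the 1464 sites of 1 list. The median fold over the mock was 5.10, 8.26 and 4.84 in the same order. A fold below 5 over the mock or over the surroundings was found at 85.3% of the sites in 2 lists, at 18.8% of those in 3 and at 91.3% of those in 1. The missing list was that of replicate 1 at 360 sites, of replicate 2 at 497 and of replicate 3 at 370. Sites just inside and just outside the map thus had nearly the same heights.

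**Figure D3:**
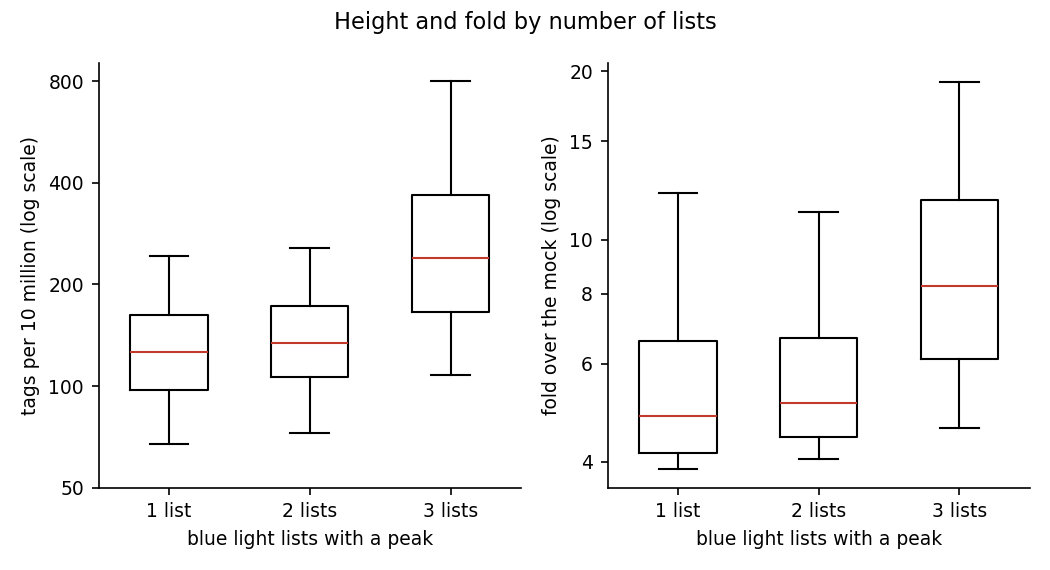
Tags per 10 M (left) and fold over the mock (right) of the joined sites by the number of blue lists with a peak, on log scales. Boxes span the quartiles with the median in red, and whiskers run from the 5th to the 95th percentile. Boxes of sites in 1 and 2 lists overlap almost wholly, with medians of 126 and 134 tags, and the box of sites in 3 lists lies higher, with a median of 239 tags.

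Only 4 of the 1227 sites in 2 lists exceeded 500 tags. The highest, inside the histone H4 gene AT5G59970, held 1035 and 1081 tags in replicates 1 and 2 and was not called there in replicate 3. TMAC2 (AFP4) had 651 and 656 tags in the same libraries. A site with its centre inside both MYBR1 and CYP81G1, 271 bp from the nearest gene end, held 584 and 614 tags in replicates 2 and 3. Beside BMY3, which encodes a beta-amylase, lay a pair of such sites, with 510.2 and 522 tags in replicates 1 and 3, and with 503 and 488 tags in replicates 2 and 3. The caller keeps peaks of a list at least 680 to 696 bp apart, per the file headers, so of close neighbours a list can hold 1 alone. Another joined blue site within 696 bp was found beside 62 of the sites in 2 lists (5.05%) and beside 73 of those in 1 list (4.99%). Beside sites in 3 lists it was found in 3 cases (0.0405%). The spacing rule itself holds this last share low, since a list with the neighbour would have to hold both peaks. Among the 4 tallest sites in 2 lists 3 had such a neighbour.

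Positions, which had no part in the choice of the sites, lay mostly near gene ends. The centre lay between protein-coding genes at 4910 sites (56.9%), where 45.9% of the bases of the 5 chromosomes lie, and inside a gene at 3723 (43.1%), where 54.1% of the bases lie. Within 500 bp of a gene end lay 6483 centres (75.1%), against 35.3% of the bases. The median distance to the nearest gene end was 151 bp, with quartiles of 59.3 and 499 bp, and 57.3% of the centres lay within 200 bp. Only 486 sites (5.63%) lay deeper than 500 bp inside a gene and 597 (6.92%) farther than 1500 bp from genes. The table of genes carries no strand, so starts and ends of genes were not told apart.

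**Figure D4:**
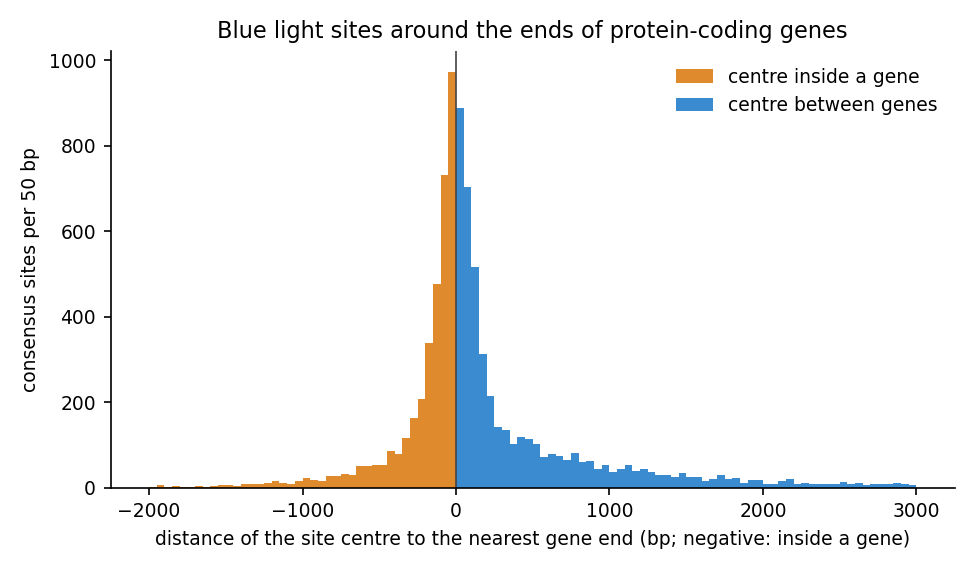
Number of consensus sites per 50 bp of distance between the site centre and the nearest end of a protein-coding gene, with centres inside a gene at negative distances (orange) and centres between genes at positive ones (blue). The counts peak on both sides of the gene end and thin out faster inside genes than between them. The median distance is 151 bp.

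Height differed little with position. Sites between genes had a median of 223 tags and sites inside genes 209 tags. The order was the other way round far from gene ends, with 231 tags at sites over 500 bp inside a gene and 209 tags at sites between genes over 1500 bp from an end. The difference of the medians was 0.0968 ± 0.0137 on the log2 scale, between genes minus inside, with the same sign in 3 of 3 libraries. Sites within 500 bp of gene ends were lower than those farther away, with a difference of -0.0638 ± 0.00657 (log2, near minus far), again in 3 of 3 libraries. The exact two-sided permutation test over 3 libraries gave p = 0.25 for both, the smallest p it allows. Lower mock medians stood beside the lower heights, with 18.3 mock tags inside genes and 19 between them.

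Of 23810 spacers between neighbouring protein-coding genes 4573 (19.2%) held a site centre, and 309 held 2 or more. The share was 9.70% in spacers under 500 bp and 36.8% in those over 4000 bp. Chromosomes 1 to 5 held 2292, 1337, 1664, 1344 and 1996 sites, or 67.9 to 75.3 per M bases and 30.5 to 32.2 per 100 protein-coding genes. In bins of 200 kb with under 20 protein-coding genes, 81 in number, there were 139 sites, 20.2 per 100 genes. Bins with 40 to 59 genes held 32.6 sites per 100 genes and those with 60 or more 30.5.

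A gene was counted where a site overlapped the window from 1500 bp outward to 500 bp inward of either of its ends, so a site can count for several genes. By this count 45.5% of all protein-coding genes had a site and 5.08% (1393 genes) had a site of the highest 10%. Of the genes with a site 10873 had 1, 1576 had 2 and 38 had 3. A site reached 2 genes in 4179 cases, 1 gene in 2773, none in 712 and at most 5. With each site given to the gene of the nearest end alone 7986 genes had a site, and with peaks of at least 8-fold over the mock 6674. The gene assigned to a site is therefore a neighbour and not a proven target. For all genes with a site, the highest site in reach had a median of 223 tags and a median fold over the mock of 7.82. Of the 452 genes on the 23 lists below, 305 had a site. With sites called in at least 1 list the number was 328, and with windows of 3000 bp outward 358. A gene said below to have no site lacked a consensus site in this window, and weaker or more distant binding there was not tested. The counts of each list stand against the 45.5% of all protein-coding genes with a site and the 5.08% with one of the highest 10%.

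**Figure D5:**
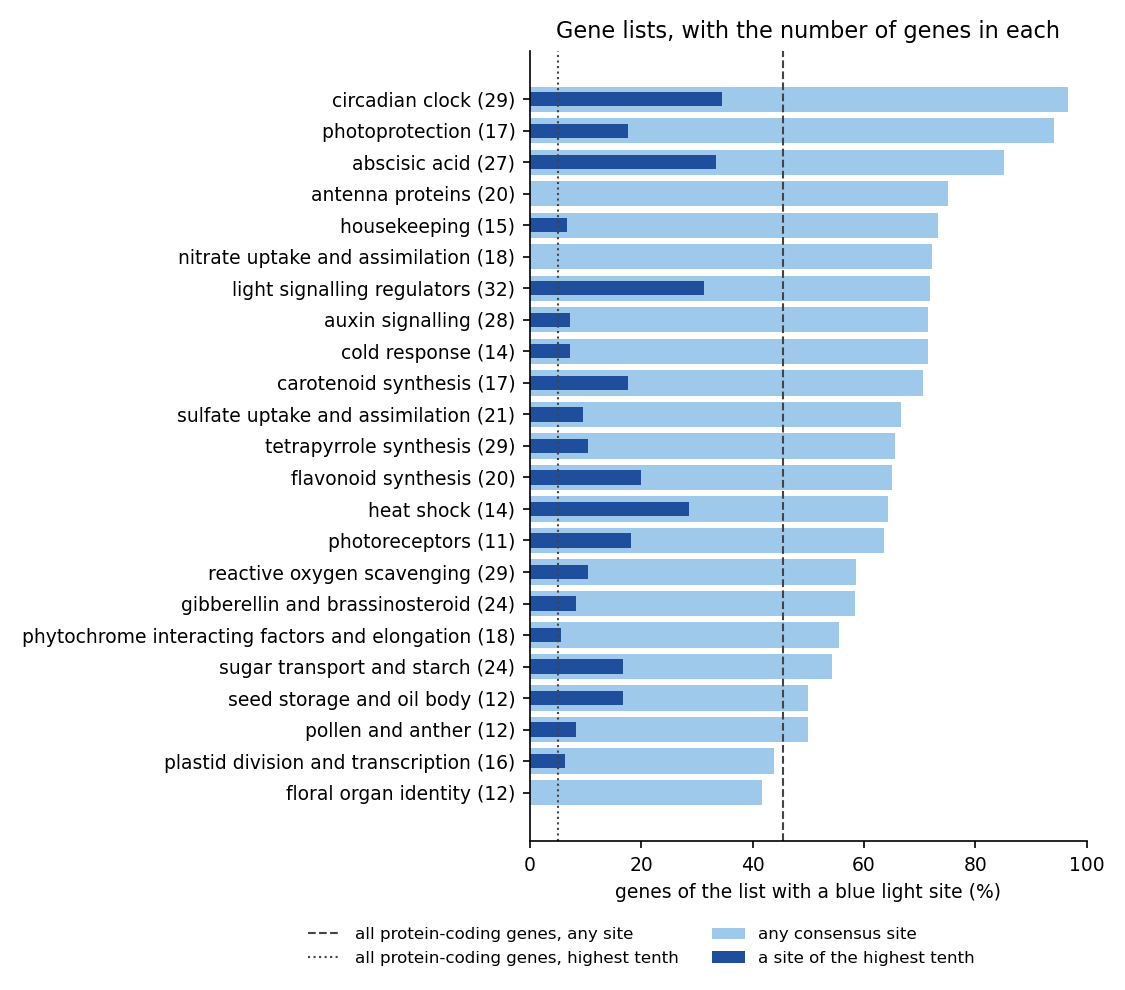
Share of the genes of each list with a blue light consensus site (light bars) and with a site of the highest 10% (dark bars), in percent, with the number of genes of the list in brackets. The dashed and dotted lines give the same shares over all protein-coding genes, 45.5% and 5.08%. The clock list stands at 28 of 29 genes and the floral list, at the bottom, at 5 of 12.

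Photoreceptor genes had a site in 7 of 11 cases, 2 of them of the highest 10%, with a median of 420 tags (all protein-coding genes: 45.5%, 5.08% and 223 tags). PHOT2, a phototropin that moves chloroplasts in strong blue light, had a site with 1077, 1076 and 1059.8 tags that lies inside the neighbour AT5G58160. CRY3, a cryptochrome of the organelles, had 880.0, 980.0 and 913 tags at its own end. PHYB, the main red light receptor of green plants, held 499.9, 537 and 433 tags and the phytochrome PHYC 399, 429 and 432. All 3 values of PHYB lay above those of PHYC, at the closest by 433 against 432 tags. PHYA, the phytochrome of far-red light, followed with 237 ± 22.4 tags, CRY1, the main cryptochrome of seedling de-etiolation, with 210.1 ± 4.60 and PHYD with 180.2 ± 21.7. No consensus site lay in reach of CRY2, PHOT1, PHYE or UVR8, the UV-B receptor.

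Regulators of light signalling had a site in 23 of 32 cases (71.9%), 10 of them of the highest 10%. Their median was 506 tags (all protein-coding genes: 45.5%, 5.08% and 223 tags). Beside HY5 itself the highest were partners of COP1. SPA1 had 1563, 1553 and 1424 tags over 84 mock tags, and SPA3 977, 1045 and 895 tags over 75.3. SPA4 held 541 ± 34.8 tags and SPA2 had no site. COP1 itself had 555, 608 and 609 tags 46 bp from its end. The B-box factors, zinc finger proteins that act with HY5, were divided. BBX24 (STO), BBX4 and BBX28 held 782 ± 26.6, 772 ± 34.4 and 766 ± 39.3 tags, and BBX29 to BBX32 also had sites, between 239.9 tags at BBX31 and 559.5 at BBX32. BBX21 held 229 tags, and BBX20, BBX22, BBX23 and BBX25 had no site. HYH, the closest relative of HY5, held 440.0, 389 and 459 tags, far below HY5.

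On the clock list 28 of 29 genes had a site (96.6%), 10 of them of the highest 10%. The median was 348 tags (all protein-coding genes: 45.5%, 5.08% and 223 tags). GI, a gene of photoperiod timing, had 1049, 1099.7 and 1081 tags over 56.7 mock tags. LUX, a member of the evening complex, had 1005, 848 and 863 tags over 41 mock tags, and LNK3 924, 838 and 861 over 20.7. NOX (BOA), the closest relative of LUX, held 837 ± 52.9 tags over 40.3 mock tags. The folds over the mock of these 4 were 12.8 (GI), 14.7 (LUX), 27.6 (LNK3) and 13.9 (NOX), so LNK3, with the fewest mock tags, had the largest. The largest fold of the list was 32.3 at LNK4, whose 659 ± 15.3 tags stood over 13 mock tags at a site inside the gene (AT5G06980). The smallest height was 160.2 tags at LKP2, and no site lay in reach of ZTL, which senses blue light for the clock.

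Flavonoid synthesis, which makes the sunscreen pigments of leaves, had sites at 13 of 20 genes, 4 of them of the highest 10%. The median height was 434 tags and the median fold over the mock 14.3 (all genes: 7.82). F3H, flavanone 3-hydroxylase, had 1821, 1709.8 and 1737 tags, the MYB activator MYB12 1228, 1120.4 and 1157 and its relative MYB11 1179.5, 1022 and 1225. The MYB11 site lay inside its neighbour ATERDJ3B. Along the pathway the heights were uneven. FLS1, flavonol synthase, held 753 ± 34.7 tags, CHS (TT4), the first enzyme, 550.1 ± 19.7, DFR 413 ± 48.9, LDOX 318 ± 21.7 and CHI (TT5) 215 ± 20.9. The DFR site lay inside its neighbour IPK1. UGT78D2 had 434 ± 14.5 tags over 7 mock tags, a fold of 37.2. MYB111, PAP1, TT8, GL3, EGL3, F3'H and UGT78D1 had no site.

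Carotenoid synthesis had sites at 12 of 17 genes, 3 of them of the highest 10%. LUT2, lycopene epsilon-cyclase, had 1099.9, 1140.2 and 1077 tags at a site that spans its end and that of NMT1. PSY, phytoene synthase, the entry step of the pathway, had 824, 844 and 714 tags, and CCD1, a carotenoid cleavage enzyme, 793, 780.2 and 727. BETA-OHASE2, a beta-carotene hydroxylase, followed with 534 ± 30.9 tags. In tetrapyrrole synthesis, the route to haem and chlorophyll, 19 of 29 genes had a site and 3 a site of the highest 10%. After FC1 came GSA2 with 1019.5, 989.9 and 1007 tags, GUN5 (a subunit of magnesium chelatase) with 763, 685 and 734 and GUN4, its activator, with 508 ± 14.3. The GSA2 site lay inside its neighbour DCF. The committing enzyme HEMA1 held 296 ± 16.4 tags, and of the protochlorophyllide reductases PORC held 489 ± 32.4, PORB 185 and PORA had no site.

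Genes of the antenna proteins, which bind chlorophyll around the photosystems, had sites in 15 of 20 cases and none of the highest 10%. Over all protein-coding genes these shares were 45.5% and 5.08%, so a list of 20 genes would hold few sites of the highest 10%. They ranged from 145 tags at LHCB2.2 to 537 ± 19.9 at LHCA5, with a median of 373 tags. LHCB4.1, LHCB2.3 and LHCA4 followed LHCA5 with 419 ± 29.5, 408 ± 26.0 and 406 ± 4.08 tags. A pair of genes in this list can share a site, as LHCB1.4 and LHCB1.5 do, and the LHCB1 genes are near-identical copies, between which tags may have been divided. Photoprotection genes, which guard the photosystems against excess light, had sites in 16 of 17 cases, 3 of them of the highest 10%. PSBS, ZEP, PGR5 and STN8 were called in 2 of the 3 lists, and 12 genes had a site called in all 3. The site of PGRL1A is the one also counted for LDOX. The early light-induced proteins ELIP1 and ELIP2 had 1564, 1566 and 1513 and 906, 883 and 868 tags. SEP2 (stress enhanced protein) had 1071, 1148 and 1119 tags, and LIL3:2, a related membrane protein, 535 ± 16.4. TAP38 had no site.

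In the plastid list 7 of 16 genes had a site, close to the share of all genes (45.5%). SIG5, a sigma factor of the plastid RNA polymerase that responds to blue light, stood apart with 2128, 2075 and 2047 tags. PTAC12 (431 ± 24.2), SIG1 (385 ± 24.7) and SIG4 (342 ± 2.65) followed. The greening factors GLK1, GLK2 and CGA1 and the division genes ARC5, ARC6, FTSZ1-1 and FTSZ2-1 had no site.

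Sulfate uptake and assimilation had sites at 14 of 21 genes with a median of 179 tags. A pair of its reducing enzymes were the highest. APR2, the main APS reductase, had 939, 858 and 841 tags and the sulfite reductase gene SIR 782, 731 and 766. SULTR1;2, a root sulfate transporter, and SERAT1;1 held 329 ± 20.4 and 319 ± 25.6 tags, and APR1 and APR3 117 and 136. Nitrate uptake and assimilation had sites at 13 of 18 genes, with a median of 183 tags. None was of the highest 10%, of which a list of 18 genes would hold few (all protein-coding genes: 45.5% and 5.08%). NRT2.2, a nitrate transporter, held 388 ± 16.1 tags and NRT2.5 295 ± 1.12. The regulators LBD37 and LBD38 had sites in 2 of the 3 lists, with means of 344 and 254 tags (n = 2). NIA2, the main nitrate reductase gene, had 149.8, 98.9 and 110.1 tags, near the bottom of the map, and NIA1 had no site.

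Scavenging of reactive oxygen had sites at 17 of 29 genes (58.6%), 3 of them of the highest 10% (all protein-coding genes: 45.5% and 5.08%). CAT2, the catalase of photorespiration, had 1110.2, 1073 and 1107 tags and the glutathione peroxidase gene GPX6 1118, 1032 and 1086. MDAR1, which regenerates ascorbate, held 603 ± 34.9 tags and APX2, an ascorbate peroxidase, 470.1 ± 8.43 at a site inside HCF152. CAT1, CAT3 and APX1 had no site. Sugar transport and starch had sites at 13 of 24 genes (54.2%, against 45.5% of all protein-coding genes). SEX1, a kinase that starts starch breakdown, had 909.9, 1011 and 888 tags and APL3, a subunit of ADP-glucose pyrophosphorylase, 681, 691 and 644. The sucrose phosphate synthase gene SPS2F had 599 ± 7.92 tags and the hexose transporter gene STP13 589.9 ± 20.6. These 4 stood in the highest 10% of the map, while the other 9 held between 137 (TPT) and 316 tags (SPS1F).

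Abscisic acid genes had sites in 23 of 27 cases, 9 of them of the highest 10%, with a median of 485 tags and a median fold of 13.1. The bZIP factors of this hormone's response were at the top. ABF4 had 1194, 1257 and 1225 tags, ABF3 1123, 1085 and 1084 and ABF2 976, 953 and 906, while ABF1 held 145. AFP2, which encodes an ABI5-binding protein, had 1021, 1107 and 1019.8 tags. The response gene RD29B (794 ± 29.9), the synthesis gene ABA2 (662 ± 18.2), the phosphatase genes ABI1 (598 ± 37.3) and ABI2 (489 ± 19.6) and ABI5 (493 ± 22.0) followed. ABI3, ABI4, PYL4 and PYL6 had no site.

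Auxin signalling had sites at 20 of 28 genes with a median of 203 tags. IAA29, an Aux/IAA repressor, had 1089.7, 1019.6 and 1095 tags at a site inside AT4G32285, and PID, a kinase that steers auxin transport, 734, 765 and 753. ARF2 and IAA2 held 479 ± 20.9 and 432 ± 15.2 tags. Gibberellin and brassinosteroid genes had sites in 14 of 24 cases (58.3%, against 45.5% of all protein-coding genes). GA2OX6, a gibberellin-inactivating oxidase, had 1141, 1183 and 1141 tags. The DELLA repressors all had sites, RGL3 with 567 ± 28.5 tags, RGL2 with 327 ± 25.4, GAI with 316 ± 20.5, RGA with 312 ± 8.58 and RGL1 with 122. BRI1, the brassinosteroid receptor, had 532 ± 4.01 tags. The synthesis genes GA3OX1, GA20OX1, GA20OX2, DWF4 and CPD had no site.

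Phytochrome interacting factors and elongation genes had sites in 10 of 18 cases (55.6%, against 45.5% of all protein-coding genes). HFR1, an inhibitor of these factors, held 619.7, 702 and 592 tags, PIF5 512 ± 40.2, the cell wall gene XTH33 444 ± 34.9 and PIF6 366 ± 28.5. PIF4 had 327 ± 19. tags and PIF7 236 ± 21.6, and PIF1 and PIF3 had no site. Cold response genes had sites in 10 of 14 cases (71.4%, against 45.5% of all protein-coding genes), at 9 distinct sites. CBF3, a transcription factor of cold acclimation, had 1312, 1275 and 1248 tags, and the neighbouring genes of its cluster, CBF2 and CBF1, had 345 ± 29.8 tags and no site. ZAT12 (513 ± 15.6), COR47 (438 ± 11.3) and RAV1 (415 ± 39.7) were next. In the heat shock list 9 of 14 genes had a site, 4 of them of the highest 10% (all protein-coding genes: 45.5% and 5.08%). HSP70 had 817, 916 and 846 tags, and the chaperones of the endoplasmic reticulum BIP3, BIP2 and BIP1 had 734 ± 35.2, 667 ± 7.73 and 607 ± 33.8. BIP1 and BIP2 are near-identical copies, whose tags may have been divided.

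Housekeeping genes, chosen for other work as stable controls, had sites too. On their list 11 of 15 genes had one (73.3%), 1 of them of the highest 10%, with a median of 244 tags. Over all protein-coding genes these were 45.5%, 5.08% and 223 tags. The light signalling list stood at 71.9% and the clock list at 96.6%. UBQ11 had 923, 888 and 951 tags over 20 mock tags, a fold of 30.1, GAPC1 494 ± 46.8 tags, UBQ10 390.5 ± 14.5 and ACT2 305 ± 20.8. The ubiquitin genes share repeated sequence, so their tags may have been divided. TUB2, TUB4, ACT7 and UBQ5 had no site.

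Among 12 genes of seed storage and oil bodies 6 had a site. The cruciferin gene CRA1 had 1394, 1378 and 1365 tags, and CRB, a relative, 637, 574 and 566. OLEO1 (347 ± 6.13), EM1 (312 ± 11.9), EM6 (196 ± 21.1) and CRC (189.8 ± 8.42) had lower sites, and SESA1 to SESA4, OLEO2 and OLEO4 had none. Among 12 floral identity genes 5 had a site. AP1 held 580.4, 506 and 544 tags, AP3 415 ± 33.7, PI 295 ± 9.61 and SEP2 161 ± 1.53, while SHP1, called in replicates 1 and 3, held 73.8 (n = 2). AG, SEP1, SEP3, SEP4, SHP2, STK and LFY had no site. On the list of 12 pollen and anther genes 6 had a site. SKU5, on this list though better known for root growth, had 1024, 961 and 1001 tags. Its site was the only 1 of the list in the highest 10%. AGL65 held 361 ± 20.1 tags, QRT3 294 ± 10.6, DYT1 184 ± 9.44, AGL104 149 ± 1.5 and MS1 142 ± 7.66, the last at a site inside CAF1b. AMS, MS2, TDF1, MYB80, VGD1 and DUO1 had none. The shares of these 3 lists, 6, 5 and 6 of 12, lay near the 45.5% of all genes.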

How the data were processed

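The authors deposited 1 peak list for each library, made by HOMER findPeaks in the factor style with the mock as control, per the file headers. Peaks also passed a Poisson p-value of 0.0001 and a false discovery rate of 0.001, per the same headers. The submitters' processing notes name HOMER 4.9 and TAIR10. For the aligner, nothing is stated in the sources used here. The deposited signal is the tag number of a peak per 10 M tags of the library, which converts to whole tags (tolerance 0.1) at 100% of peaks, and the mock signal is unscaled, with 0 written as 0.5 by the authors (read here as 0). The deposited ratios, the folds over the mock and over the surroundings, and the focus ratio, a deposited fraction, were used as the authors' values, and the deposited p-values and caller score were not used. The lists of the 3 red light libraries were not used.

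Peaks were joined at 1 bp of overlap and kept with 2 of 3 lists, with Python 3.11.15, pandas 2.3.3 and scipy 1.17.1. The mock total, 6839675 tags, was derived from the lists, as the ratio of the signal scaled to the mock and the signal per 10 M. The fold over the mock is the ratio of tags per 10 M with 1 mock tag added to both, averaged over libraries as log2, and ratios printed with a 95% exact Poisson interval have no tag added and use mock tags rounded to whole numbers. The join and the folds were tested on simulated data.

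Genes come from the RefSeq table of TAIR10.1, which shares its nuclear coordinates with TAIR10, and site positions from the peak lists. It carries no strand, so gene ends took the place of the planned gene starts. No genome sequence was used, so the planned search for the element of HY5 was not run. Members and gene lists were chosen with earlier results of these data known, and list counts are descriptions with no test. The named sites are the 20 highest, the 10 with the largest fold, the 10 with the most mock tags and the 5 highest in 2 lists, and of each list the 4 highest genes and all genes of lists of up to 12, and other genes were named after their values were seen. Alternatives changed the fold, overlap or lists required, the scaling, the tags added or the gene window, or left out a library. The site centre in the window and the highest 10% of sites alone were added after the data were seen.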

Additional observations from a re-analysis of the deposited data

How the results depend on the processing

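Without 1 library in turn, the map of sites called in both remaining lists held 7760 to 7901 sites, its median fold over the mock was 3.00 to 3.01 (log2), 743 to 781 sites reached 16-fold, and 75.2% to 75.5% lay within 500 bp of a gene end. At least 8-fold over the mock in each list left 4371 sites, of which 84.0% were in all 3 lists, with a median log2 fold of 3.47, 6674 genes, 200 listed genes, 41.9% of centres inside genes and 74.8% near gene ends. With a peak in all 3 lists the median was 3.05, with 42.6% inside and 75.6% near ends, and with 1 list it was 2.85, with 73.3% in all 3, 43.8% inside and 74.8% near ends. The main median of 2.94 was 2.96 with equally long lists, 3.02 with the authors' deposited fold, 2.98 with 0.5 and 2.81 with 3 mock tags added. With the mock unscaled the median was 3.49 and 2220 sites reached 16-fold, and with blue tags scaled to the tags outside the peaks 3.36 and 1823, against 776. The nearest gene end alone gave 7986 genes in place of 12487. Near gene ends lay 62.2% of the centres within 250 bp and 87.0% within 1000 bp. Sites of the highest 10% alone reached 67 listed genes in place of 305. The cause of these shifts was not tested. The other values stayed within 1 SD, or for counts within 1.5 times. Of the 23 lists, 13 counts moved by over 1.5 times at 8-fold, 6 with windows of 500 bp outward, 1 with 3000 bp, 2 with the nearest end and 1 with the site centre. No paired analysis was possible because the mock is 1 library with no replicate number. The element search and the window around gene starts were not run. At the lowest 10% of the map, with medians of 96.3 blue and 11 mock tags, few tags stand behind each value, and 55% of the sites are called in all 3 lists.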

Other observations

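Genes that make no protein had blue light sites too, counted by the same window as protein-coding genes (45.5%). Of 287 small nucleolar RNA genes 45.3% had a site, of 3480 long noncoding RNA genes 35.9%, of 625 transfer RNA genes 33.4% and of 326 microRNA genes 23.3%. Pseudogenes had sites in 5.95% of 3917 cases and transcribed pseudogenes in 19.7% of 926. These genes differ in length and in how close they lie to protein-coding genes, whose part in the shares was not tested. Of the 326 microRNA genes 76 had a site and 5 (1.53%) a site of the highest 10%, against 5.08% of all protein-coding genes.

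Gene families were grouped by their symbols alone, so members under other names are left out. Over all protein-coding genes 45.5% had a site and 5.08% a site of the highest 10%, and several family shares lay near these. B-box factors had sites at 19 of 30 genes (63.3%), 6 of them of the highest 10%, and WRKY factors at 39 of 71 (54.9%), 5 of them of the highest 10%. Glutathione transferases, which join glutathione to other compounds, had sites at 24 of 48 genes (50%), 5 of them of the highest 10%, led by GSTU15. Cytochrome P450 genes had sites at 72 of 234 (30.8%), MYB factors at 40 of 125 (32%), SAUR genes, small auxin-induced genes, at 25 of 80 (31.2%), and xyloglucan hydrolases, which act on the cell wall, at 8 of 33 (24.2%). Aux/IAA repressors had sites at 19 of 32 (59.4%), expansins at 12 of 29 (41.4%) with none of the highest 10%, and ribosomal protein genes at 27 of 49 (55.1%).

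Of the 38 genes with 3 sites, AT1G17450 had the largest sum, with 308 ± 3.16, 289 ± 9.69 and 807 ± 61.1 tags per 10 M at its sites (SD, n = 3). RECA1, a plastid DNA repair gene, had 508 ± 6.35, 415 ± 13.3 and 218 ± 3.96 tags. ERD10, a dehydrin gene of drought and cold, had 438 ± 11.3, 323 ± 9.49 and 306 ± 20.8. A site can count for several genes, and the first of ERD10 has the height and SD given above for COR47. The sites of ERD10 thus lay within a narrower range of heights than those of AT1G17450.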
